A study of Drosophila melanogaster with 12 samples.

Results

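The nuclear genes of the respiratory chain and of ATP synthase were described across fed and starved larvae of 2 genotypes. They were chosen by symbol (ND- for complex I, SdhA to SdhD for complex II, UQCR-, RFeSP and Cyt-c1 for complex III, COX followed by a number for complex IV, and ATPsyn for complex V). In RefSeq 89 fly genes match these symbols, 3 of them in the mitochondrial genome. Of the 89, 71 had a probe set of their own on the array, and 56 of these 71 were in the table of 7442 named genes analysed here. The 56 are 50 subunits and 6 paralogs of subunits (ND-20L, COX4L, COX6AL2, COX7AL2, ATPsynGL and ATPsynbetaL), with no assembly factor among them. Complex I has 26 of them, complex II 3, complex III 5, complex IV 10 and complex V 12. SdhA, the flavin-carrying subunit of complex II, is not among them and was not analysed here.

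Complexes I to IV of the inner mitochondrial membrane pass electrons from NADH and succinate to oxygen, and complexes I, III and IV pump protons while doing so. ATP synthase, complex V, uses the proton gradient to make ATP. In insect larvae the chain burns what the gut absorbs and, when food is withdrawn, what the fat body has stored, and its many small proteins are built into the membrane in fixed ratios. HNF4 belongs to the nuclear receptors, and the arrays compare larvae carrying deletions in its gene with controls under both diets.

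RNA of whole larvae was measured on 12 one-colour Affymetrix Drosophila arrays, 3 for each of 4 groups. Larvae labelled HNF4 mutant (mutants hereafter) carried the deletion alleles HNF4(del33) and HNF4(del17) in trans. Control larvae carried precise excisions of the P-elements EP2449 and KG08976 in trans. Each genotype was starved for 24 h from late L2 on wet paper, or kept on normal lab food, and all groups are labelled mid-L3. RNA came only from animals that looked healthy and had molted to L3, so larvae that failed to do so are not represented. Values are expression intensities on a linear scale, which the authors normalized with dChip, a program that summarises the probes of a probe set. Differences are log2 differences from a linear model over all 12 arrays (limma) with the standard error (SE) of the fit. A gene was called when its Benjamini-Hochberg adjusted p was under 0.05, with 9669 probe sets in the adjustment, and "rose" and "fell" are used only of called genes. The p-values refer to the spread between samples prepared in triplicate, which may be technical.

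Array medians lay between 535.2 and 551.8 on starved arrays and between 483.3 and 519.8 on fed arrays. The highest value of an array went the other way, at 29677 to 31540 on starved and 33840 to 37787 on fed arrays. The distribution of values thus differed with diet, and its part in the starvation results was not tested. Medians of the members under other scalings are given in the last section. Replicate arrays of a group correlated at r = 0.968 to 0.994. The Hnf4 probe set was brighter in mutants (2784, 2938 and 3190 in starved mutants against 1736, 1818 and 1937 in starved controls, and 1641, 1540 and 1482 in fed mutants against 1327, 1207 and 1228 in fed controls). Whether it lies inside the deleted part is not given in the sources used here, so it does not check the genotype. The 6 measured muscle markers of 10 summed to 85732 to 91251 in starved mutants and 83785 to 87033 in starved controls. They summed to 83595 to 90493 in fed mutants and 82992 to 95446 in fed controls, and these ranges overlap. Single muscle markers did change with diet, as 2 fell and 1 rose in mutants, and 1 fell and 0 rose in controls. Mlc2 averaged 2391 starved and 3428 fed in mutants, and 3197 and 3409 in controls. Mf averaged 22559 starved and 18097 fed in mutants, and 20877 and 19308 in controls. The means of bt were 9256 starved and 11578 fed in mutants, and 8289 and 11955 in controls. The 3 measured fat body markers of 8 summed to 14532 to 20076 in starved mutants and 17743 to 19068 in starved controls, against 25191 to 39906 in fed mutants and 25761 to 46588 in fed controls. The 2 measured neuronal markers of 5 summed to 602 to 690 in starved mutants and 691 to 793 in starved controls, against 901 to 918 in fed mutants and 850 to 916 in fed controls. The 4 measured midgut markers of 6 summed to 56823 to 60557 in starved mutants and 50457 to 56146 in starved controls, against 47191 to 56275 in fed mutants and 37472 to 56603 in fed controls. These sums overlap between diets in controls and not in mutants. Among the 4 only alphaTry, a trypsin of the gut, was called, and it rose 2.90-fold in mutants and 3.32-fold in controls. In mutants betaTry averaged 20615 starved and 22345 fed, and Jon65Aiii 20319 and 21171. Jon99Ci averaged 6233 starved and 5003 fed in mutants. The part of the changes in these fat body, neuronal, muscle and midgut markers in the results that follow was not tested.

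Starvation was accompanied by a lower level of most of the 56 transcripts in both genotypes. In mutants 45 fell, 4 rose and 7 were not called, where 75.7% of all probe sets were called (38.3% lower and 37.5% higher). In controls also 45 fell, 4 rose and 7 were not called, where 68.2% of all probe sets were called (32.1% lower and 36.1% higher). The median difference over the 56 was log2 -0.41 in mutants and -0.44 in controls, a starved level of 75.1% and 73.8% of the fed level, while the median over all probe sets was -0.04 in mutants and 0.03 in controls. Without the paralogs, 44 of 50 subunits fell and 1 rose in mutants, and 43 fell and 1 rose in controls. Every starved array was below every fed array for 48 of the 56 genes in mutants and 45 in controls, as was the case for 40.9% and 34.2% of all probe sets. Every starved array was above every fed array for 3 genes in mutants and 4 in controls, against 39.7% and 38.1% of all probe sets. Since whole larvae were measured, fewer cells of a type rich in mitochondria and less RNA per cell cannot be told apart.

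**Figure D1:**
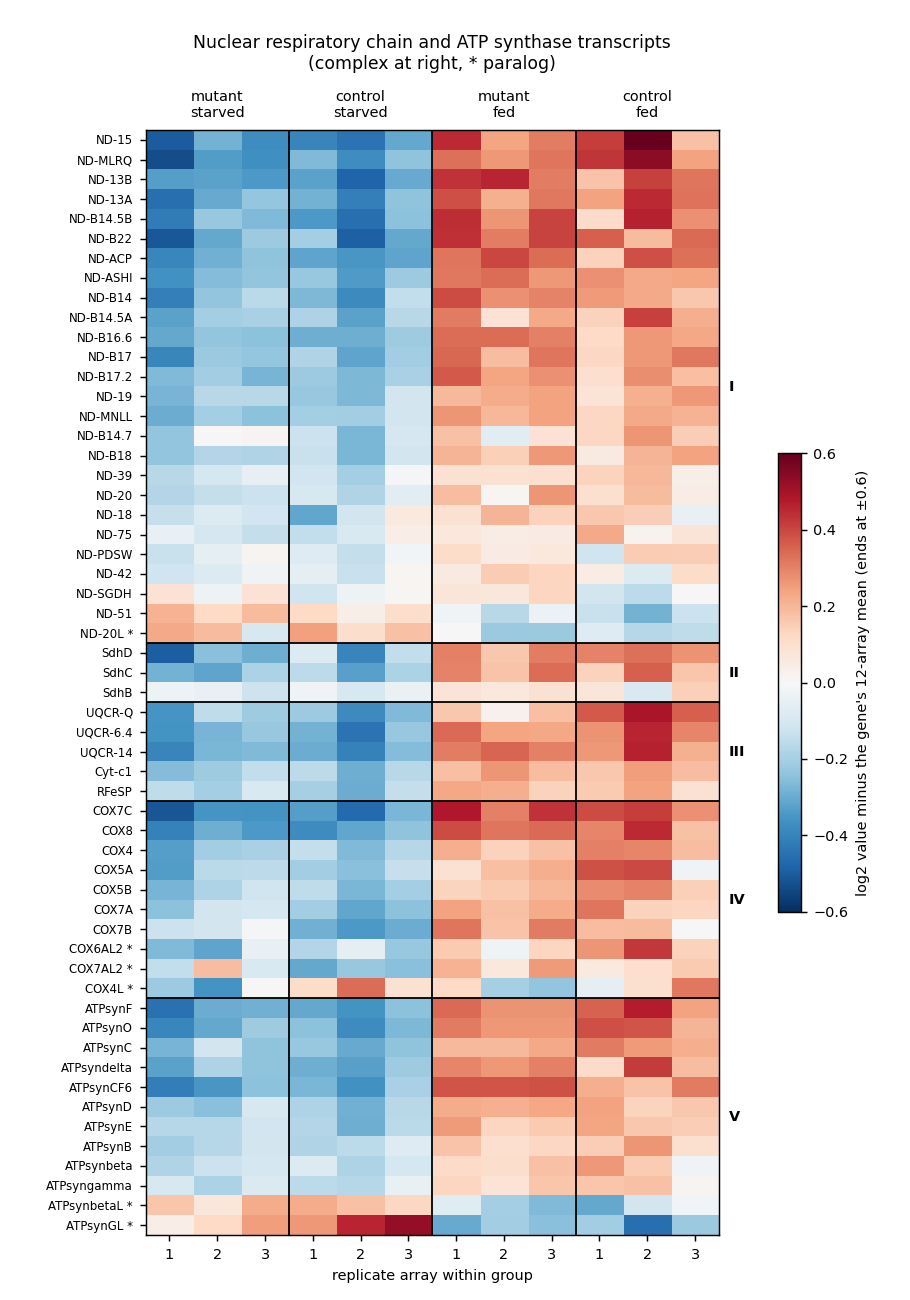
Each row is one of the 56 genes and each column one array, grouped as mutant starved, control starved, mutant fed and control fed. Colour is the log2 expression value minus the gene's mean over the 12 arrays, and lines part the complexes, with paralogs marked by an asterisk. Most rows are blue on all 6 starved arrays and red on all 6 fed arrays, and ND-51, ND-20L, ATPsynbetaL and ATPsynGL run the other way.

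The 5 complexes moved together. For each array the log2 deviations of the subunits of a complex from their own 12-array means were averaged. For the 25 subunits of complex I this mean was -0.27, -0.18 and -0.16 in starved mutants and -0.20, -0.27 and -0.14 in starved controls, against 0.25, 0.18 and 0.23 in fed mutants and 0.14, 0.24 and 0.18 in fed controls. The starved and fed arrays did not overlap in complex I, and they did not overlap in any of the other 4 complexes either. Complex III had the largest mean difference of the 5 in controls, at -0.55, against -0.46 in mutants. Complex II had the smallest in controls, at -0.35, against -0.43 in mutants, and the spread of its 3 starved control arrays (SD 0.098) was larger than this gap between genotypes. Complex IV differed by -0.48 in mutants and -0.51 in controls, complex V by -0.44 in both, and complex I by -0.43 in mutants and -0.39 in controls. No difference between complexes was tested.

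**Figure D2:**
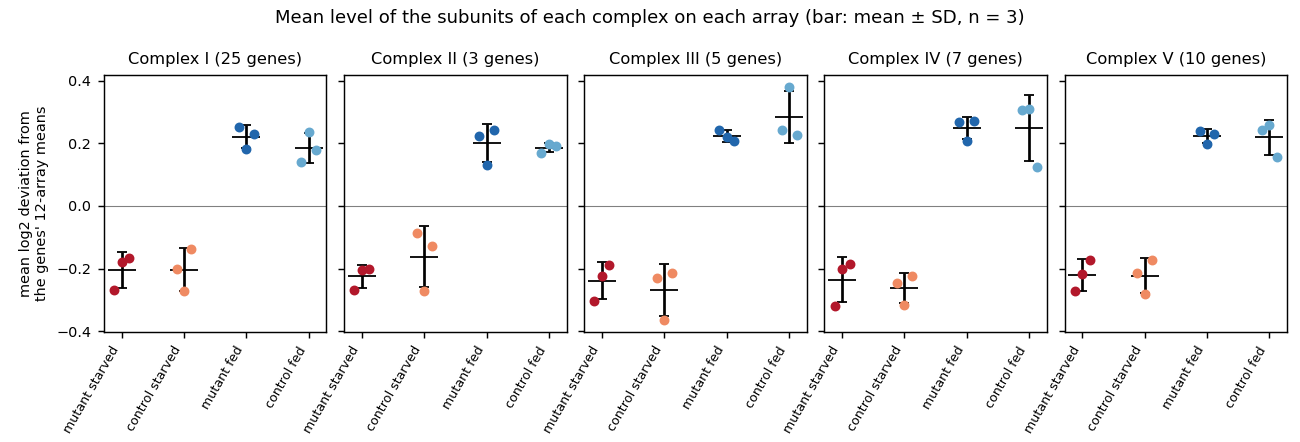
Points are arrays, coloured by group, and bars are the mean and SD of 3 arrays. The y axis is the mean log2 deviation of the subunits of a complex from their 12-array means. All starved arrays lie below 0 and all fed arrays above it in each of the 5 complexes, and the mutant and control points of one diet overlap.

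The level of Lsp2 was uneven among the fed arrays. Lsp2, a larval serum protein gene that the fat body switches on during L3 and one of the 3 fat body markers summed above, read 287.3, 374.0 and 304.7 in starved mutants and 330.6, 369.5 and 327.8 in starved controls. It read 13857, 328.5 and 780.0 in fed mutants and 18373, 16372 and 290.4 in fed controls, so 3 of the 6 fed arrays were as low as or near the starved ones. On those 3 fed arrays the mean deviation of all 50 subunits was 0.19 and 0.23 in mutants and 0.17 in the control. On the 3 fed arrays with high Lsp2 it was 0.25 in the mutant and 0.20 and 0.26 in controls. The 6 starved arrays lay between -0.29 and -0.16, below every fed array of either kind. Whether Lsp2 differs here by stage, fat body content or feeding was not tested.

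Complex I, the NADH dehydrogenase, is the largest of the complexes. Of its 26 genes 20 fell and 2 rose in mutants, and 19 fell and 2 rose in controls. The largest decreases were in small accessory subunits. ND-15 read 2989, 3466 and 3257 in starved mutants against 5751, 4968 and 5221 in fed mutants, and 3212, 3102 and 3410 in starved controls against 5622, 6963 and 4772 in fed controls. The starved and fed arrays do not overlap in either genotype. It fell by 0.71 ± 0.12 in mutants (limma adjusted p = 0.000332) and by 0.82 ± 0.12 in controls (adjusted p = 0.000176). ND-13B fell by 0.73 ± 0.083 in mutants and 0.67 ± 0.083 in controls, ND-B22 by 0.73 ± 0.10 and 0.63 ± 0.10. ND-MLRQ, whose mammalian relative NDUFA4 is found with complex IV, read 10331, 11861 and 11601 in starved mutants against 18800, 17901 and 18672 in fed mutants. In controls it read 12450, 11567 and 12643 when starved, against 20164, 21704 and 17680 when fed. Its decrease was 0.71 ± 0.089 in mutants and 0.70 ± 0.089 in controls, again without overlap.

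ND-51, the subunit that binds NADH and carries the flavin, was the 1 subunit of any complex that rose. It read 6758, 6348 and 6667 in starved mutants against 5760, 5211 and 5709 in fed mutants, and 6347, 5985 and 6293 in starved controls against 5326, 4802 and 5354 in fed controls. All starved arrays were above all fed arrays of the same genotype. The difference was 0.25 ± 0.073 in mutants (limma adjusted p = 0.00995) and 0.27 ± 0.073 in controls (adjusted p = 0.00739). It was not called when arrays were centred on their medians (0.12 in mutants and 0.17 in controls) or in the authors' other table (0.15 and 0.01), so its sign was kept while its call depended on the scaling. With centring the median of all probe sets shifted to -0.17 in mutants and -0.06 in controls.

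A few other complex I subunits, chosen after their values were seen, were called in 1 genotype or in neither. ND-75, an iron-sulphur subunit of the same arm as ND-51, read 2381, 2287 and 2225 in starved mutants against 2568, 2535 and 2544 in fed mutants, and 2214, 2306 and 2528 in starved controls against 2875, 2493 and 2595 in fed controls. Its arrays overlap in controls, and it was not called (-0.15 ± 0.077 in mutants, -0.18 ± 0.077 in controls). ND-SGDH differed by -0.04 ± 0.071 in mutants and 0.04 ± 0.071 in controls, and ND-PDSW by -0.13 ± 0.086 and -0.14 ± 0.086, neither called. ND-42 (-0.19 ± 0.075) and ND-18 (-0.26 ± 0.097) were called in mutants and not in controls, and ND-B14.7 (-0.35 ± 0.096) in controls and not in mutants. The calls of ND-42 and ND-18 in mutants were lost when mutant starved replicate 1 or mutant fed replicates 2 or 3 were left out singly (adjusted p between 0.063 and 0.114), among other arrays. Which of these genes were called depended on the setting. ND-75 was called lower in both genotypes with the series matrix, the authors' other table (-0.30 in mutants and -0.38 in controls), with quantile normalization (-0.21 and -0.26) and with median centring (-0.28 and -0.27). In controls it was also called without control fed replicate 2 (-0.22) or control starved replicate 3 (-0.23). ND-PDSW was called lower in both genotypes with median centring (-0.26 and -0.23), and in controls with the series matrix (-0.36), with quantile normalization (-0.22) and without control fed replicate 1 (-0.23). ND-18 was called in controls in 5 settings (-0.30 to -0.28), among them without control fed replicate 3 or control starved replicate 3. ND-42 was called in controls and not in mutants with the series matrix (-0.14 in mutants and -0.34 in controls), and ND-B14.7 was called in mutants with median centring (-0.27). The difference between the 2 responses was called for none of these 3, at limma adjusted p = 0.659, 0.888 and 0.466.

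Complex II, succinate dehydrogenase, feeds electrons from the citric acid cycle into the chain. SdhC and SdhD, which anchor it in the membrane, fell. SdhC read 6051, 5914 and 6467 in starved mutants against 9072, 8292 and 9311 in fed mutants, and 6616, 5891 and 6467 in starved controls against 8115, 9444 and 8266 in fed controls. SdhD read 2303, 2727 and 2646 in starved mutants against 3993, 3620 and 4005 in fed mutants, and 3066, 2461 and 2922 in starved controls against 3978, 4078 and 3909 in fed controls. Neither gene has overlapping starved and fed arrays. SdhC fell by 0.53 ± 0.085 in mutants and 0.44 ± 0.085 in controls, and SdhD by 0.60 ± 0.097 and 0.51 ± 0.097 (limma adjusted p at most 0.000888 in these 4 tests). SdhB, the iron-sulphur subunit, read 3989, 3947 and 3728 in starved mutants against 4285, 4257 and 4330 in fed mutants, and 4009, 3803 and 3952 in starved controls against 4281, 3823 and 4490 in fed controls. The groups overlap in controls, and the difference was not called (-0.14 ± 0.073, limma adjusted p = 0.0965 in mutants, and -0.10 ± 0.073, adjusted p = 0.264 in controls). It was called lower with median centring (-0.27 in mutants and -0.19 in controls), in mutants with array weights (-0.16) and in controls with quantile normalization (-0.18), so the missing call depends on the scaling.

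All 5 measured genes of complex III, ubiquinol-cytochrome c reductase, fell in both genotypes, and no starved array overlapped a fed one. Cyt-c1, which carries the haem that reduces cytochrome c, read 8510, 8792 and 9197 in starved mutants against 11550, 12216 and 11590 in fed mutants. In controls Cyt-c1 read 9137, 8305 and 9058 when starved, against 11398, 12123 and 11561 when fed. It fell by 0.42 ± 0.069 in mutants and 0.41 ± 0.069 in controls. RFeSP, the Rieske iron-sulphur protein, fell by 0.34 ± 0.072 in mutants (not called in the authors' other table, at -0.18) and 0.38 ± 0.072 in controls. The small subunits UQCR-14 (0.63 ± 0.081 in both genotypes) and UQCR-6.4 (0.56 ± 0.083 in mutants and 0.66 ± 0.083 in controls) fell more than these catalytic ones in both genotypes, though the difference between the genes was not tested. UQCR-Q read 655.6, 753.9 and 721.6 in starved mutants against 935.2, 852.4 and 948.4 in fed mutants, and 718.5, 642.2 and 695.5 in starved controls against 1080, 1176 and 1074 in fed controls. The starved groups overlap each other, while all 3 fed mutant arrays are below all 3 fed control arrays. It fell by 0.36 ± 0.082 in mutants and by 0.70 ± 0.082 in controls.

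All 7 measured subunits of complex IV, cytochrome c oxidase, fell in both genotypes. COX7C, a small structural subunit, read 5676, 6352 and 6331 in starved mutants against 11306, 10005 and 10955 in fed mutants, and 6444, 5863 and 6699 in starved controls against 10643, 10802 and 9822 in fed controls. COX8, another small subunit, read 8123, 8772 and 8456 in starved mutants against 14091, 13444 and 13604 in fed mutants, and 8276, 8672 and 9102 in starved controls against 13190, 14657 and 12144 in fed controls. The starved arrays of both genes are well below the fed ones. COX7C fell by 0.81 ± 0.084 in mutants and 0.72 ± 0.084 in controls, and COX8 by 0.70 ± 0.080 and 0.62 ± 0.080 (limma adjusted p at most 6.18e-05 in these 4 tests). The subunit median was -0.38 in mutants and -0.45 in controls. In mutants the decrease of COX7B was not called in the authors' other table (-0.19) or with quantile normalization (-0.13).

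All 10 measured subunits of complex V fell in both genotypes. ATPsynF, a subunit of the membrane part, read 11600, 12877 and 12953 in starved mutants against 20009, 19076 and 19046 in fed mutants, and 12758, 12321 and 13347 in starved controls against 20173, 21877 and 18681 in fed controls. ATPsynCF6, coupling factor 6 of the peripheral stalk, read 8348, 8715 and 9389 in starved mutants against 14420, 14435 and 14508 in fed mutants, and 9192, 8656 and 9718 in starved controls against 12948, 12519 and 13800 in fed controls. Starved and fed arrays are apart in both. ATPsynF fell by 0.64 ± 0.079 in mutants and 0.66 ± 0.079 in controls, and ATPsynCF6 by 0.71 ± 0.074 and 0.51 ± 0.074. ATPsynO, the stalk protein that confers oligomycin sensitivity, fell by 0.58 ± 0.079 in mutants and 0.62 ± 0.079 in controls. The smallest decreases were those of the rotor subunit ATPsyngamma (0.25 ± 0.073 in mutants and 0.24 ± 0.073 in controls) and the catalytic subunit ATPsynbeta (0.27 ± 0.079 and 0.26 ± 0.079), both named after their values were seen. ATPsynbeta is the brightest of the 56, at a mean of 20263. Under quantile normalization ATPsyngamma was not called and its difference was 0.01 in mutants and -0.01 in controls. In the authors' other table it was not called either (-0.09 in mutants and -0.23 in controls), nor was ATPsynO in mutants (-0.31).

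**Figure D3:**
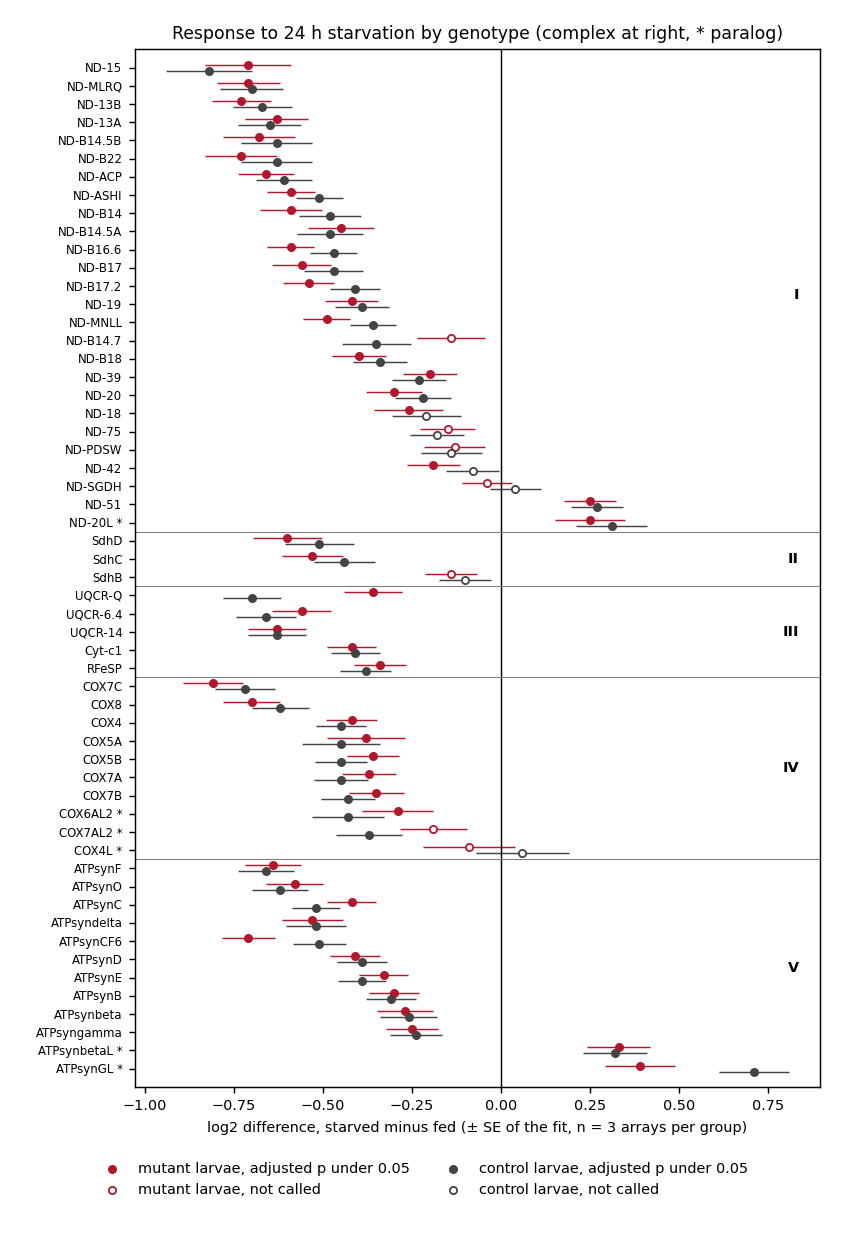
Each row is a gene, with its log2 difference between starved and fed larvae in mutants (red) and controls (dark grey), and bars of 1 SE of the fit. Filled points have an adjusted p under 0.05, and paralogs carry an asterisk. Most points lie left of 0, between -0.82 and -0.14, and the mutant and control points of a gene are close to each other, with UQCR-Q and ATPsynGL farthest apart.

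The 6 paralogs are copies of subunit genes. In Drosophila many such copies are expressed mainly in the male germline. Their probe sets were dim, with means of 110 (COX7AL2) to 429 (ATPsynbetaL), where the lower quartile of an array lay between 250.5 and 270.2. Their starvation responses went in both directions. ATPsynGL, a paralog of the membrane subunit g, read 331.0, 350.0 and 382.8 in starved mutants against 260.9, 278.6 and 270.5 in fed mutants, and 385.5, 442.4 and 463.5 in starved controls against 278.6, 235.2 and 276.1 in fed controls. All starved arrays are above all fed ones, and the starved mutants are below the starved controls. It rose by 0.39 ± 0.097 in mutants (limma adjusted p = 0.00344) and by 0.71 ± 0.097 in controls (adjusted p = 8.27e-05), and it was called in every alternative tried. ATPsynbetaL, a paralog of the catalytic subunit, read 477.4, 446.3 and 495.8 in starved mutants against 404.1, 368.9 and 354.1 in fed mutants, and 496.5, 480.6 and 464.2 in starved controls against 343.8, 393.9 and 420.0 in fed controls. The starved arrays are again the higher ones. It rose by 0.33 ± 0.089 in mutants and 0.32 ± 0.089 in controls, and ND-20L by 0.25 ± 0.099 and 0.31 ± 0.099. Neither of these 2 was called after median centring, where ATPsynbetaL stood at 0.21 in mutants and 0.23 in controls and ND-20L at 0.13 and 0.22. In the authors' other table ATPsynbetaL was not called in mutants (0.35). ND-20L was called there in neither genotype, at 0.15 in mutants and turned to -0.03 in controls. With quantile normalization ND-20L was also not called (0.19 in mutants and 0.22 in controls). The call of ND-20L was also lost without control starved replicate 1 (0.27 in controls) and, in mutants, without mutant starved replicates 1 or 2 or mutant fed replicates 2 or 3 (0.20 to 0.22).

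The complex IV paralogs did not rise. COX6AL2 read 146.6, 141.8 and 171.2 in starved mutants against 196.6, 173.3 and 192.7 in fed mutants, and 156.1, 169.3 and 150.7 in starved controls against 212.1, 236.6 and 194.3 in fed controls. It fell by 0.29 ± 0.10 in mutants and 0.43 ± 0.10 in controls. In the authors' other table all 12 of its values lie under the floor of 16, so no change could be measured there. Its call in mutants was lost without mutant starved replicates 1 or 2 or mutant fed replicates 1 or 3 (-0.27 to -0.24). COX7AL2 fell by 0.37 ± 0.093 in controls and differed by -0.19 ± 0.093 in mutants, called there only with some settings, such as without mutant starved replicate 2 (-0.30). In controls it was not called in the authors' other table (-0.62), where 7 of its 12 values lie under the floor. COX4L differed by -0.09 ± 0.13 in mutants and 0.06 ± 0.13 in controls, not called. Markers of the male germline were measured beside these genes. The 5 measured of 8 summed to 1303 to 1770 in starved mutants and 1868 to 2053 in starved controls, against 1138 to 1468 in fed mutants and 1235 to 1563 in fed controls. Of the 5, Mst98Ca, Mst98Cb and can rose on starvation in both genotypes, and the part of these cells in the paralogs' values was not tested.

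The starvation differences of the genotypes share no arrays and could be set side by side. Their calls are less separate, since they rest on 1 estimate of the spread over all 12 arrays. Of the 56 genes 43 fell in both, 4 rose in both (ND-51, ND-20L, ATPsynGL and ATPsynbetaL) and 5 were called in neither. Over the 56 genes, which are not independent of each other, the responses correlated at r = 0.93 (Spearman 0.90), and 54 had the same sign. Over all probe sets the responses correlated at r = 0.92 (Spearman 0.93), 90.7% had the same sign, 29.4% fell in both, 32.5% rose in both and 18.2% were called in neither. The correlation over the 56 genes is thus near that over all probe sets. The difference between the responses, mutant minus control, was called for 0 of 56 genes, where 2.59% of all probe sets were called. With limma 2 genes had an unadjusted p under 0.05 (17.5% of all probe sets had), and 0 were called in any alternative tried. These 2 were UQCR-Q, at 0.33 ± 0.12 (limma adjusted p = 0.162), and ATPsynGL, at -0.32 ± 0.14 (adjusted p = 0.257). In UQCR-Q the 95% confidence interval of the difference ran between 0.08 and 0.59, and in ATPsynGL between -0.62 and -0.02. The interval lay within 0.5 of 0 on the log2 scale for 52 of the 56, so a difference of that size or more was not excluded for the other 4.

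Genotype was compared within each diet. Among fed larvae 0 of 56 genes were called between mutants and controls, where 1.05% of all probe sets were called. Among starved larvae also 0 of 56 were called, where 7.61% of all probe sets were called. With limma, 4 genes had an unadjusted p under 0.05 in starved and 2 in fed larvae, against 20.2% and 11.1% of all probe sets. All 3 mutant arrays were below all 3 control arrays for 2 genes in starved and 1 gene in fed larvae, against 14.4% and 8.48% of all probe sets. They were above them for 3 genes in starved and 4 in fed larvae, against 15.3% and 5.14%. The median difference was -0.01 in starved and 0.02 in fed larvae, with the 56 genes between -0.37 and 0.24 in starved and between -0.28 and 0.18 in fed larvae. The 95% confidence interval lay within 0.5 of 0 for 55 of 56 genes in each diet, COX4L being the exception in both. For the 50 subunits alone the intervals reached at most 0.40 from 0 in starved and 0.46 in fed larvae. By complex, the mean deviation of the subunits differed between genotypes by at most 0.06, in complex II of starved larvae (-0.06) and complex III of fed larvae (-0.06).

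**Figure D4:**
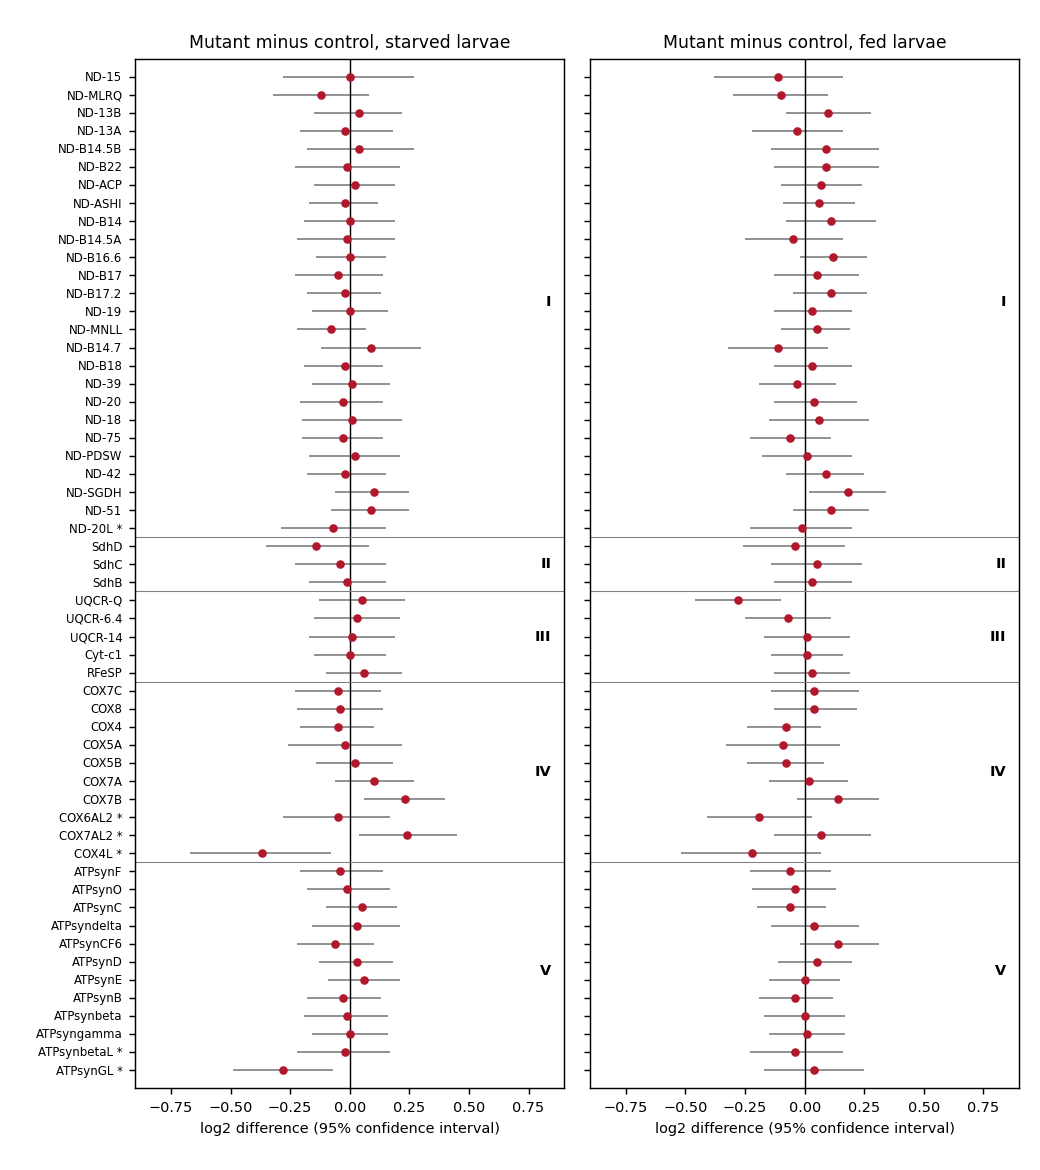
Each row is a gene in the same order as in the plot of starvation responses, with the log2 difference between mutants and controls among starved larvae (left) and fed larvae (right). Bars are 95% confidence intervals before adjustment for the number of genes. The points lie near 0, and UQCR-Q in fed larvae and COX4L, ATPsynGL, COX7AL2 and COX7B in starved larvae have intervals that leave 0 out, as has ND-SGDH in fed larvae.

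The genes nearest to a call were chosen after their values were seen. UQCR-Q was lower in all 3 fed mutant arrays than in any fed control array, given above, with a difference of -0.28 ± 0.082 (limma adjusted p = 0.187). In starved larvae it differed by 0.05 ± 0.082. COX7B, a small subunit of complex IV, read 12267, 12427 and 13288 in starved mutants against 10952, 10551 and 10913 in starved controls, and 16747, 15072 and 16604 in fed mutants against 15231, 15260 and 13395 in fed controls. The starved genotypes do not overlap and the fed ones do. The difference was 0.23 ± 0.077 in starved larvae (limma adjusted p = 0.109) and 0.14 ± 0.077 in fed larvae (adjusted p = 0.537). The other probe sets of COX7B gave 0.20 and 0.13 in starved and 0.28 and 0.21 in fed larvae, none called. It was called in starved larvae in 2 of 24 alternatives, with quantile normalization (adjusted p = 0.0439) and with array weights (adjusted p = 0.0123), and over all alternatives the adjusted p lay between 0.0123 and 0.355.

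ND-SGDH, an accessory subunit of complex I, read 7534, 7493 and 7825 in fed mutants against 6624, 6411 and 7133 in fed controls, a difference of 0.18 ± 0.071 without overlap (limma adjusted p = 0.371). In starved larvae it read 7599, 7013 and 7605 in mutants against 6587, 6997 and 7198 in controls, which overlap. Among the paralogs, COX4L read 222.9, 201.9 and 258.9 in starved mutants against 279.7, 327.0 and 276.0 in starved controls (-0.37 ± 0.13, limma adjusted p = 0.133). ATPsynGL differed by -0.28 ± 0.097 in starved larvae (adjusted p = 0.117) and COX7AL2 by 0.24 ± 0.093 (adjusted p = 0.155). ATPsynGL was called with array weights and COX7AL2 with quantile normalization. The summed male germline markers given above were also lower in starved mutants than in starved controls, like COX4L and ATPsynGL and unlike COX7AL2. Of these 5 markers 0 were called between genotypes in starved larvae, and their part in the differences of the paralogs was not tested.

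Genes that build the complexes were taken from a list of 24 assembly factors, of which 13 were measured. In mutants 9 fell and 2 rose on starvation, and in controls 10 fell and 2 rose, with medians of -0.38 and -0.39. For this list and those that follow, 38.3% of all probe sets fell and 37.5% rose in mutants. In controls 32.1% fell and 36.1% rose. Sdhaf3, an assembly factor of succinate dehydrogenase, read 228.5, 303.5 and 281.8 in starved mutants against 783.6, 943.2 and 824.7 in fed mutants, and 332.8, 291.1 and 375.5 in starved controls against 796.1, 907.3 and 998.9 in fed controls. The groups are far apart. It fell by 1.65 ± 0.13 in mutants and 1.44 ± 0.13 in controls. Surf1, an assembly factor of cytochrome c oxidase, fell by 1.22 ± 0.091 in mutants and 1.11 ± 0.091 in controls, and Scox, which brings copper to the same enzyme, by 1.24 ± 0.13 and 0.81 ± 0.13. These decreases are larger than that of any of the 56 genes in mutants, and the difference from them was not tested.

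Sirup, the fly Sdhaf4 and likewise an assembly factor of succinate dehydrogenase, did the opposite of Sdhaf3 on starvation and differed between the genotypes. It read 1549, 1830 and 2144 in starved mutants against 7458, 6337 and 8799 in starved controls, and 655.6, 519.4 and 521.4 in fed mutants against 1668, 1531 and 816.4 in fed controls. Every mutant array is below every control array of the same diet, with the third fed control array nearest to the fed mutants. It rose on starvation by 1.70 ± 0.24 in mutants (limma adjusted p = 7.92e-05) and by 2.55 ± 0.24 in controls (adjusted p = 6.61e-06). Mutants were lower than controls by a log2 difference of -2.03 ± 0.24 in starved larvae (adjusted p = 0.000527), a 4.09-fold difference, and -1.18 ± 0.24 in fed larvae (adjusted p = 0.0467). The starved difference was called in all 24 alternatives, between -2.17 and -1.91. The fed difference was called in 8 of 24, with adjusted p between 0.000908 and 0.248 and values between -1.60 and -0.99. Of the 12 single arrays left out in turn, it kept the call only without control fed replicate 3 (-1.51). Without control fed replicates 1 or 2 it was -0.99 and -1.05, without mutant fed replicates 1, 2 or 3 it was -1.30, -1.13 and -1.13, and without a starved array it stayed at -1.18 with adjusted p of at least 0.0619. The difference between its responses was -0.85 ± 0.34 and not called (adjusted p = 0.233). Sirup was the 1 assembly factor of the 13 called between genotypes in either diet.

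**Figure D5:**
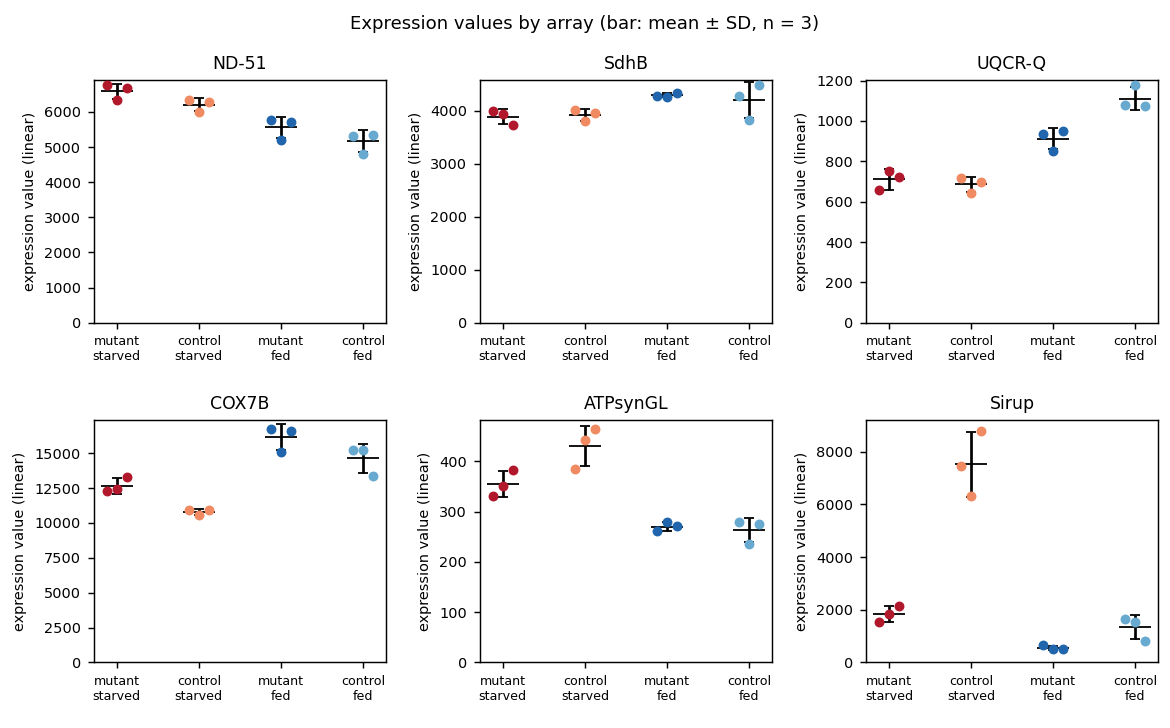
Expression values (linear scale, y axes start at 0) of 5 members and of the assembly factor Sirup on each array, with the mean and SD of 3 arrays. ND-51 and ATPsynGL are higher in starved larvae and SdhB differs little, UQCR-Q and COX7B are lower in starved larvae, and Sirup is highest in starved controls at 7531 ± 1233, against 1841 ± 297 in starved mutants.

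Other genes of the pathway gave a wider picture. Of 12 subunits and electron carriers under other symbols 5 were measured and all 5 fell in both genotypes. They were levy and cype, both subunits of cytochrome c oxidase (levy by 0.51 ± 0.080 in mutants and 0.50 ± 0.080 in controls, cype by 0.59 ± 0.071 and 0.49 ± 0.071), ox of complex III (0.60 ± 0.10 and 0.70 ± 0.10), blw, the alpha subunit of ATP synthase (0.29 ± 0.072 and 0.30 ± 0.072), and SdhAL, a dim paralog of SdhA whose difference in mutants turned to 0.19 in the authors' other table. Of 9 coenzyme Q genes 7 were measured, and 5 fell and 1 rose in both genotypes. Coq3 fell by 0.84 ± 0.086 in mutants and 0.78 ± 0.086 in controls and Coq9 by 0.67 ± 0.10 and 0.64 ± 0.10, while Coq7, a hydroxylase of the same pathway, rose by 0.91 ± 0.10 and 0.64 ± 0.10.

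Of 11 carriers of the mitochondrial membranes 8 were measured, of which 3 fell in mutants and 4 in controls, with 2 rising in each. Porin, the channel of the outer membrane, fell by 0.54 ± 0.074 in mutants and 0.60 ± 0.074 in controls. The ADP/ATP translocase sesB, chosen after its values were seen, averaged 20003 in starved and 23187 in fed mutants. In controls it averaged 20369 when starved and 23783 when fed. It fell by 0.21 ± 0.069 in mutants and 0.22 ± 0.069 in controls. Ant2, a much dimmer ADP/ATP translocase, read 840.5, 832.7 and 1097 in starved mutants against 594.6, 611.8 and 507.6 in fed mutants. In controls Ant2 read 1059, 953.1 and 1140 when starved, against 678.4, 466.4 and 812.5 when fed. Its starved arrays are the higher ones, and it rose by 0.69 ± 0.18 in mutants and 0.72 ± 0.18 in controls, but in the authors' other table it stood at -0.06 and 0.28, not called. Ucp4B fell by 0.59 ± 0.10 in mutants and 0.50 ± 0.10 in controls and had the opposite sign in that table. Of 22 genes of mitochondrial biogenesis and turnover 13 were measured. In mutants 5 fell and 7 rose, and in controls 5 fell and 6 rose. The counts of carriers and of these genes stand beside 38.3% of all probe sets lower and 37.5% higher in mutants. In controls these shares were 32.1% and 36.1%. Marf, a mitochondrial fusion protein, rose by 1.78 ± 0.11 in mutants and 1.34 ± 0.11 in controls, and Pink1, a kinase that marks damaged mitochondria, by 1.61 ± 0.091 and 1.33 ± 0.091. The DNA-binding protein mtSSB, needed to copy the mitochondrial genome, fell by 1.67 ± 0.22 in mutants and 1.25 ± 0.22 in controls.

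The decrease was set beside a pair of other families. Of 66 measured mitochondrial ribosomal proteins, which make the subunits encoded in the mitochondrial genome, 63 fell in mutants and 59 in controls and none rose in limma's test. Their median differences were -1.11 in mutants and -0.89 in controls, against -0.41 and -0.44 over the 56 genes. Of 20 measured subunits of the vacuolar ATPase, a proton pump of other membranes built on a similar plan to ATP synthase, 4 fell and 6 rose in mutants and 2 fell and 10 rose in controls, with medians of 0.07 and 0.22. No difference between families was tested.

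Several members had more than 1 probe set. The 5 genes ND-ACP, ND-B17, COX7B, ATPsynbeta and ATPsyngamma had 12 together, and in every one the starved level was lower in both genotypes. The size depended on the probe set. In ND-ACP, the acyl carrier protein of complex I, the decrease in mutants was 0.66 ± 0.078, 1.05 ± 0.11 and 0.46 ± 0.087 over its 3 probe sets, and in controls 0.61 ± 0.078, 0.71 ± 0.11 and 0.37 ± 0.087. The other probe set of ATPsyngamma was not called in mutants (-0.14 ± 0.072, limma adjusted p = 0.107).

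Of the 71 genes with a probe set of their own, 15 were not in the dChip table and were looked up in the series matrix, the authors' other table, which holds all probe sets. They were 12 paralogs and the subunits ND-B12, ND-B8 and UQCR-11. Their medians over the 12 arrays lay between 8.8 and 289.1, and 13 of the 15 were under 100. Of these 15 only ATPsynepsilonL was called in any contrast.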

How the data were processed

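Whole larvae of 4 groups (HNF4 mutant or control, starved or fed) were measured on 12 one-colour arrays, with groups taken from the sample labels. The main table holds intensity values of 9669 probe sets, normalized by the authors in dChip and limited to probe sets called Present, per the file headers. The dChip version, its model and how Present calls were made are not given in the sources used here. The deposited series matrix holds intensity values of 18769 probe sets after 183 control probe sets were left out, with scaling not stated. Columns were matched by name, and each correlated best with the like-named sample of the second table. Precision is limited by having 3 arrays a group.

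Values were floored at 16 (11 values lay below) and taken to log2. One linear model with a mean for each group was fitted by lmFit and eBayes of limma 3.58.1 (R 4.3.3), leaving 8 residual degrees of freedom and a prior of 3.12, and gave 5 contrasts, with Benjamini-Hochberg adjustment over all probe sets. The fit for starved against fed controls was tested on simulated data in which 200 of 9669 probe sets changed. It recovered 53% of changes of 0.5 log2 and 86% of changes of 1 log2. In the data 68.2% of probe sets were called in this contrast, so these rates do not carry over to it. Probe sets were named by the platform annotation with symbols updated through RefSeq; 7970 carried a single symbol, 1451 carried none, and 248 carried several and stayed unnamed. The probe set with the highest mean stood for a gene. Of the 89 genes matching the symbols, 18 had no probe set of their own (3 of them only shared ones) and were not analysed here. The members and lists were chosen with earlier results of these data known. Named were, per contrast, all called members if at most 8, otherwise the 2 largest changes per complex and direction and every member called against the majority; the Sdh subunits, RFeSP, Cyt-c1 and all paralogs; and up to 3 called genes of each other list. Others are said to be chosen after their values were seen. Alternatives were quantile normalization, median centring, the series matrix, floors of 1 and 64, no dim probe sets, a replicate block, eBayes trend and robust, array weights, the compared arrays alone, mean of probe sets, subunits only, and each array left out; leaving out both low-weight arrays was added after seeing the data. No sequences or coordinates were used.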

Additional observations from a re-analysis of the deposited data

Results flagged for a closer look

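ATPsynepsilonL, a paralog of the epsilon subunit of ATP synthase, was measured only in the series matrix, outside the table that the report's comparisons use. It read 330.0, 370.1 and 386.8 in starved mutants against 261.5, 199.8 and 195.7 in fed mutants, and 430.6, 316.7 and 386.9 in starved controls against 185.6, 233.8 and 250.5 in fed controls. All starved arrays were above all fed arrays of the same genotype. The log2 difference was 0.74 in mutants (limma adjusted p = 0.0074) and 0.76 in controls (adjusted p = 0.00746), over the 18769 probe sets of that table. Its direction is that of ATPsynGL and ATPsynbetaL. The male germline markers summed higher in starved controls, and their part in this value was not tested.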

How the results depend on the processing

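The counts of members that changed on starvation were 49 in mutants and 49 in controls. Leaving out each array in turn gave 44 to 49 in mutants and 46 to 51 in controls, and 0 in both genotype comparisons and in the difference between the responses. In mutants the series matrix gave 32 (31 lower, 1 higher), and in controls 46, where 5922 and 5315 of its 18769 probe sets were called. Between genotypes in starved larvae, 2 members were called with quantile normalization (COX7B and COX7AL2, both higher) and 2 with array weights (COX7B higher, ATPsynGL lower), whose iteration stopped before convergence; elsewhere the count was 0. The cause was not tested. The labels do not say whether the replicate numbers pair the samples. Same-numbered deviations correlated between -0.396 and 0.283, which with 3 arrays a group cannot settle it. With replicate number as a block the counts were 49, 49, 0, 0 and 0, and the fed difference of Sirup was then not called (limma adjusted p = 0.104). The median over the members in mutants was -0.54 with median centring and -0.29 with quantile normalization, and in controls -0.53 with centring. The series matrix moved the median between fed genotypes to -0.09 and that of the difference between responses to 0.12, neither of which rests on a call. With centring 1 member rose in each genotype in place of 4. In the series matrix COX6AL2 stood at 0.00 in mutants because all 12 of its values lie under the floor of 16. Among differences called with the main table, opposite signs were found there for Ant2 (-0.06) and SdhAL (0.19) in mutants and for ND-20L (-0.03) in controls. Ucp4B had the opposite sign there in both genotypes (0.36 in mutants and 0.64 in controls). With quantile normalization ATPsyngamma had it in mutants (0.01). Of all values for single named genes under these alternatives, 5672 kept their side of the threshold, 66 lost the call and 51 gained one. Another 7, COX6AL2 included, were called with the main table and did not keep the sign. Differences not called could change sign within the 5672, as did that of COX7AL2 between starved genotypes (-0.22 to 0.31). Array weights were lowest for mutant starved replicate 2 (0.454) and control fed replicate 3 (0.287), and without both arrays 47 members changed in mutants and 50 in controls. Signal limits the dim probe sets, the paralogs among them. All but the dimmest 40% of probe sets gave 46 member calls in mutants and 45 in controls, where 4463 and 4130 of 5801 probe sets were called. Dim paralogs such as ATPsynGL, COX4L and COX7AL2 were not among those tested there, so these counts are out of fewer genes than 56.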
